A study of Homo sapiens with 18 samples.

Results

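The control arm of this RNA immunoprecipitation sequencing (RIP-seq) experiment measured which RNAs anti-Flag magnetic beads recovered, and which they lost, from HEK293T cells that carried a Flag vector and no Flag-tagged SBP2. It comprised 6 of the 18 libraries of the series, 3 control RIP and 3 control input libraries, chosen by their titles. HEK293T is a human embryonic kidney line that is easily transfected. The other 12 libraries, in 4 groups of 3, were inputs and RIPs of cells given Flag-SBP2, without or with 100 nM sodium selenite added 4 h after transfection. All cells were transfected transiently and collected at 48 h, and the series design gives 3 biological replicates per group. The labels give the cells as HEK 293T, although the growth protocol names the parent line, and identity could not be checked against marker genes because the deposited table holds Ensembl gene IDs without names. The labels do not say whether replicates were transfected on separate days, so the spread between them may be partly technical, and p-values measure that spread alone. In the main test of single IDs the spread was pooled over all 18 libraries.

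RIP recovers RNA together with a protein that an antibody captures. In any such experiment some RNA also reaches the beads without the intended protein, by adhering to the matrix, the antibody or proteins that bind either. A mock precipitation, here with the tag alone, shows how that background is distributed over RNAs. SBP2 is a protein that binds the SECIS element in selenoprotein mRNAs. Its precipitations are used below only to show where the control beads differed from them.

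For each precipitation 4 mg of lysate protein met 120 μl of beads for 5 h, followed by washes of rising salt (300 mM, later 500 mM KCl), as the protocols in the labels state. Before that incubation 1 part in 5 had been set aside as input. Libraries were made from 1 μg of RNA, so a level in CPM (counts scaled to an equal library total) is a share of the library and not a yield. A fall in share and a gain by the other RNAs cannot be told apart in such data. Every ratio below therefore compares RNAs with one another within the same beads, not beads with lysate in absolute amount. Control inputs held 15162472, 18628189 and 20664228 counts and control RIP libraries 27831794, 24635071 and 29887524. The 17678 IDs that passed the low-count filter accounted for 99.9% of the counts in every control library. No reference used here pairs the IDs with gene symbols, so 2 IDs that rose and 2 that fell are given by ID and all others by group, and no sequence or coordinate is shown.

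Counts were less concentrated on the beads than in the lysate. The 10 most abundant IDs of each library held 4.84%, 4.74% and 5.07% of the counts in the 3 control inputs and 3.34%, 3.30% and 3.17% in the 3 control RIP libraries. The groups did not overlap, with means of 4.88 ± 0.171% in input and 3.27 ± 0.0895% in RIP (SD, n = 3). The most abundant 100 IDs held 20.1 ± 0.454% and 15.1 ± 0.234% (SD, n = 3). It took 907 ± 24.5 IDs to reach 50% of the counts in input and 1152 ± 21.6 in RIP (SD, n = 3). Each of these differences had a two-sided exact permutation p of 0.1, the smallest that 3 against 3 libraries allow (adjusted p = 0.125 over 5 measures). Thinned to an equal 15162472 counts, libraries detected 23007 ± 256 IDs in input and 22711 ± 184 in RIP (SD, n = 3, two-sided exact permutation p = 0.2, adjusted p = 0.2). The groups overlapped in the number of detected RNAs, and not in the share held by the abundant ones.

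**Figure D1:**
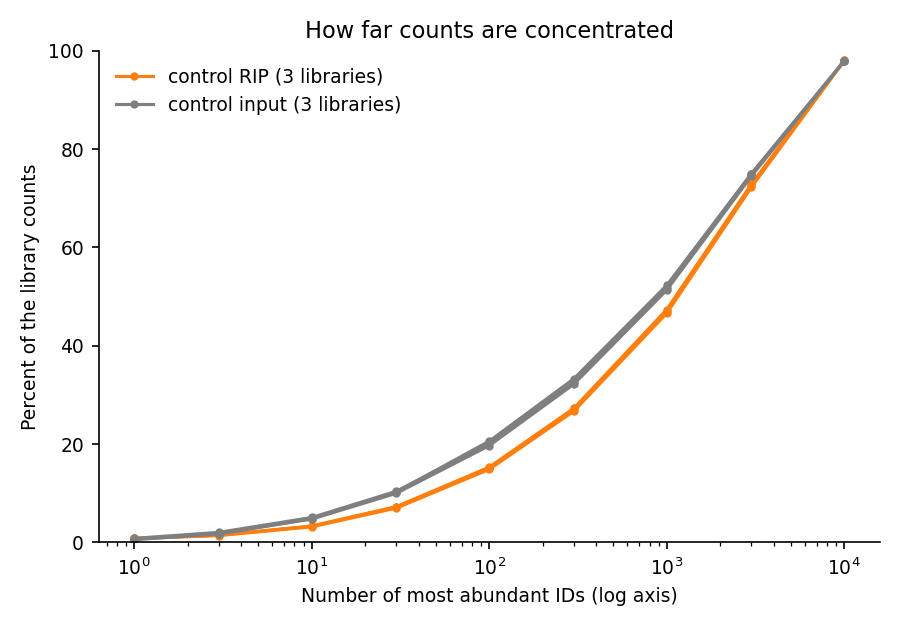
Percent of the counts of each control library (vertical axis) held by its most abundant IDs, from 1 to 10000 IDs on a log axis; each line is 1 library. At 1000 IDs the 3 RIP libraries lie at 46.6 to 47.4%, below the 3 inputs at 51.3 to 52.3%.

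Mostly different RNAs were the most abundant on the beads and in the lysate. Of the 10 IDs most abundant in control input and the 10 most abundant in control RIP, 2 were in both. The 10 leading input IDs took 4.74 to 5.02% of the input counts and 2.02 to 2.18% of the RIP counts. Of these, 9 were lower and 0 higher in RIP by edgeR's quasi-likelihood test (adjusted p under 0.05), at log2 changes from -2.96 to 0.04, where 39.8% of all tested IDs were lower and 31.5% higher. The 10 leading RIP IDs took 3.16 to 3.30% of the RIP counts and 2.17 to 2.30% of the input counts, and 6 of them were higher and 1 lower, against the same shares of all IDs. The most abundant ID was the same in both groups, at 7218 CPM in input and 7396 CPM in RIP. Both lists were picked by level in these libraries, so their changes are a description.

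Control RIP differed from input for most RNAs. Of the 17678 tested IDs, 5571 were higher (31.5%) and 7039 lower (39.8%) by edgeR's test, together 71.3%. At least 2-fold changes were called for 2299 (13%) and 3911 IDs (22.1%). Among the higher IDs 5499 rose in 3 of 3 lysates, and among the lower IDs 6931 fell in 3 of 3. Replicates of RIP and input did not overlap for 5310 of the higher and 6654 of the lower IDs, where 32.1% and 39.7% of all tested IDs lay wholly above or wholly below their inputs. IDs called higher held 24.95 to 26.6% of the counts of the inputs and 55.8 to 56.8% of those of the RIP libraries. IDs called lower held 60.7 to 62.8% and 28.8 to 29.6%. These shares describe the called IDs and come from the libraries that made the calls.

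Where 0 lies depended on the scaling and on the libraries fitted. The median of all IDs was -0.13 on the log2 scale with TMM factors and 0.06 with library size alone, and the share of called IDs that were higher was 44.2% and 52.6%. With TMM factors in the 6 control libraries alone the median was -0.009, and 5853 IDs were higher and 5940 lower of 16515 tested by edgeR. With library size alone 5952 of the 7039 lower calls and all 5571 higher calls remained by edgeR. At 2-fold or more, library size alone gave 3150 higher and 3203 lower IDs in place of 2299 and 3911. Losses at that size remained more numerous, but how far they exceeded gains depended on the scaling.

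At larger sizes losses outnumbered gains under each scaling. Among the 13140 IDs with a mean log2 CPM of at least 1 over the control libraries, 1916 were at least 2-fold higher and 2593 at least 2-fold lower. At 4-fold or more these counts were 133 and 705, and at 8-fold or more 0 and 143. The 1st and 5th percentiles of all changes were -3.28 and -2.25, and the 95th and 99th were 1.45 and 2.01. With library size alone they were 262 and 541 at 4-fold and 2 and 100 at 8-fold. No RNA was wholly lost or wholly gained at an appreciable level. Of 30484 IDs with a count in a control library, 0 had at least 10 counts in each input and 0 in all 3 RIP libraries, and 0 showed the opposite. At a single count or more per library, 128 IDs were seen in each input and in no RIP library, at input means of up to 0.486 CPM, and 257 in each RIP library and in no input, at up to 0.459 CPM. With RIP libraries deeper than the inputs, these counts cannot be compared with each other.

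**Figure D2:**
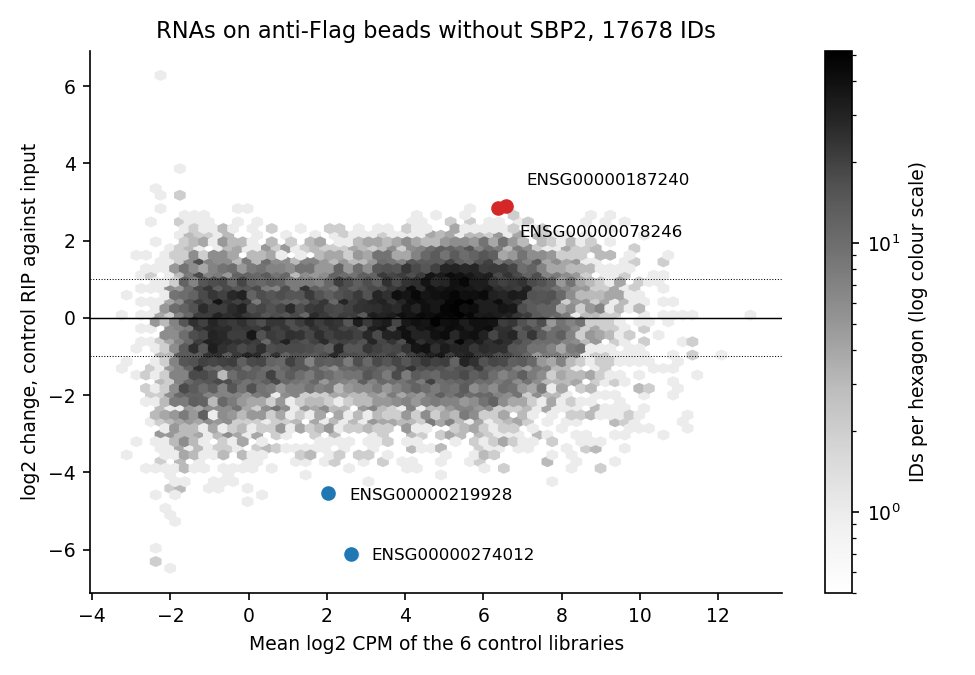
log2 change of each tested ID in control RIP against input (vertical axis) by its mean log2 CPM over the 6 control libraries (horizontal axis); shading counts IDs per hexagon on a log scale, dotted lines mark 2-fold, and the marked points are the 2 IDs with the largest rise and the 2 with the largest fall by the naming rule. With TMM factors the cloud extends further down than up, with 143 IDs at 8-fold or more below input and 0 above it among those with a mean log2 CPM of at least 1.

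ENSG00000187240 had the largest rise among the IDs that met the naming rule. Its counts were 461, 735 and 636 in the control inputs and 7474, 6664 and 9287 in the control RIP libraries. In CPM these were 32.9, 40.8 and 31.9 in input and 252, 250 and 282 in RIP. Every RIP library was far above every input, and the log2 change was 2.89 (SE 0.119, 7.42-fold, edgeR adjusted p = 1.63e-16). With Flag-SBP2 the RIP levels were 95.6, 89.5 and 99.8 CPM, and with selenite 99.6, 103 and 99.04 CPM. All 6 lay below every control RIP library, while the 9 inputs of the series ranged from 26.8 to 41.4 CPM. The RIP-to-input ratio was lower with SBP2 on the log2 scale (difference -1.56, SE 0.161, edgeR adjusted p = 2.21e-08). With SBP2 and selenite the difference was -1.36 (SE 0.161, adjusted p = 3e-07 by edgeR). The ID was picked for its rise in the same control libraries, which favours negative differences and small p-values here.

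ENSG00000078246 was next, with 368, 617 and 663 counts in the control inputs and 5711, 6147 and 8248 in the control RIP libraries. Its levels were 26.2, 34.2 and 33.3 CPM in input and 192, 231 and 251 CPM in RIP. The groups did not overlap, and the log2 change was 2.84 (SE 0.106, 7.16-fold, edgeR adjusted p = 3.17e-17). RIP levels were 103, 110 and 116 CPM with SBP2 and 107, 116 and 120 CPM with selenite, again all below the control RIP libraries. The ratio differed from the control by -1.13 with SBP2 (SE 0.143, edgeR adjusted p = 6.09e-07). With selenite the difference was -1.06 (SE 0.143, adjusted p = 2.01e-06 by edgeR). This ID was picked in the same way, with the same limit on its p-values. Both IDs nonetheless stayed above their inputs there, at log2 changes of 1.33 and 1.71 with SBP2 and 1.53 and 1.78 with selenite.

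ENSG00000274012 had the largest fall among the IDs that met the naming rule. Its counts were 451, 828 and 1627 in the control inputs and 12, 14 and 43 in the control RIP libraries. The levels were 32.2, 45.9 and 81.7 CPM in input and 0.404, 0.526 and 1.31 CPM in RIP. Input levels varied widely between lysates, and the highest RIP level was still far below the lowest input. The log2 change was -6.11 (SE 0.393, 69.2-fold, edgeR adjusted p = 5.54e-13). Without control RIP replicate 3 it was -6.80, and without control input replicate 3 -5.66. It was also lower in SBP2 RIP than in its input, at a log2 change of -4.86, and with selenite at -4.77. The difference of these ratios from the control was 1.25 with SBP2 (SE 0.655, edgeR adjusted p = 0.137). It was 1.34 with selenite (SE 0.634, adjusted p = 0.109 by edgeR). With input and RIP of 1 lysate as a block the difference passed (edgeR adjusted p = 0.00101 and 4.93e-04). It also passed without control input replicate 1 (differences of 1.51 and 1.60, edgeR adjusted p = 0.0384 and 0.0274) and without control RIP replicate 3 (1.94 and 2.03, edgeR adjusted p = 0.0446 and 0.0367), and without a low-count filter (1.12 and 1.18, edgeR adjusted p = 0.00119 and 3.7e-04). Without that filter edgeR's p-values were far smaller, with an adjusted p of 1.54e-244 for the fall itself. Without control input replicate 3 the differences were 0.80 and 0.89 (edgeR adjusted p = 0.277 and 0.221). They did not pass by DESeq2 (adjusted p = 0.168 and 0.147) or by limma voom (adjusted p = 0.234 and 0.174). Whether the difference passed thus changed with the library left out and with the method.

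ENSG00000219928 had 378, 268 and 327 counts in the control inputs and 18, 29 and 26 in the control RIP libraries. These were 27.0, 14.9 and 16.4 CPM in input and 0.606, 1.09 and 0.790 CPM in RIP. The groups were far apart, with a log2 change of -4.54 (SE 0.283, 23.3-fold, edgeR adjusted p = 3.04e-13). It fell in the other precipitations too, with log2 changes of -3.71 with SBP2 and -4.00 with selenite. The difference from the control ratio was 0.83 with SBP2 (SE 0.409, edgeR adjusted p = 0.112). It was 0.55 with selenite (SE 0.431, adjusted p = 0.358 by edgeR). With all libraries thinned to the lowest total the difference with SBP2 passed, at 1.54 (edgeR adjusted p = 0.0192). Without control input replicate 1 the differences were 0.53 and 0.25 (edgeR adjusted p = 0.254 and 0.659), and without control RIP replicate 1 that with selenite was 0.35 (edgeR adjusted p = 0.62).

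**Figure D3:**
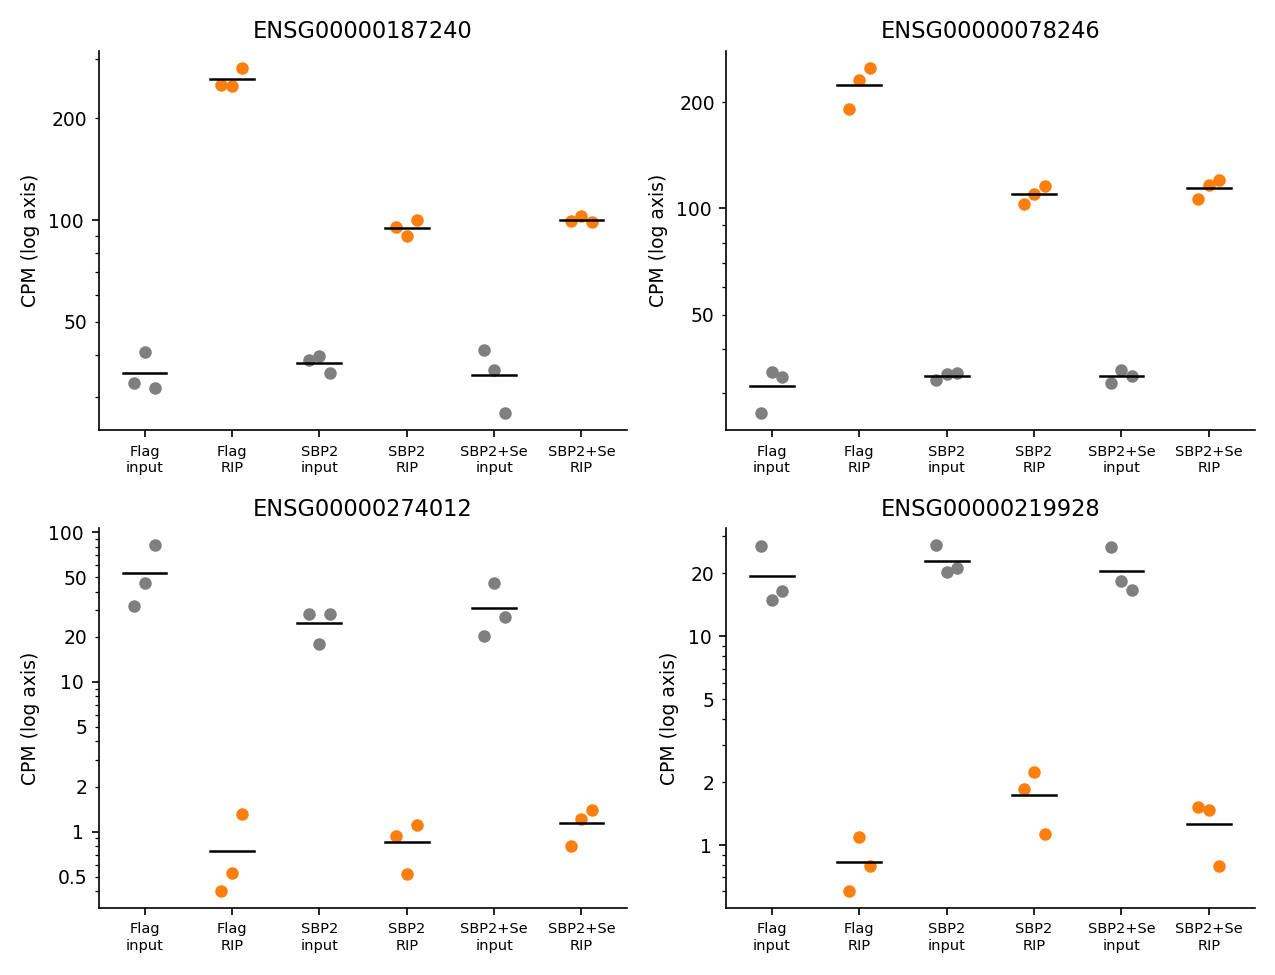
Level in CPM on a log axis of the 4 IDs in each of the 18 libraries, grouped by treatment; grey points are inputs, orange points RIP libraries and bars the mean of 3. For both upper IDs the control RIP libraries, at 192 to 282 CPM, lie above the RIP libraries of both SBP2 treatments, at 89.5 to 120 CPM.

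The 12 largest rises and the 12 largest falls among IDs that met the naming rule, which asks for a mean log2 CPM of at least 1, were described as groups. Over all tested IDs 6 rises and 283 falls of 8-fold or more were called, and 0 and 143 of these were at that level. Rarer IDs could pass the low-count filter through 1 group of libraries alone, which favours large changes. The 12 rises had log2 changes from 2.54 to 2.89 and input levels from 7.36 to 239 CPM, with a median of 38.6 CPM in input and 262 CPM in RIP. The 12 falls had log2 changes from -6.11 to -3.83 and input levels from 10.4 to 2124 CPM, with a median of 70.04 CPM in input and 4.79 CPM in RIP. All 12 rises and all 12 falls were called in the same direction in SBP2 RIP against its input, where 30.3% of all IDs were higher and 31.7% lower, and likewise with selenite, where 30.7% and 31.6% were. All 12 rises had a ratio with SBP2 that differed from the control by edgeR's test (adjusted p under 0.05), at log2 changes of 1.12 to 1.71. All 12 rises also differed with selenite, at 1.22 to 1.78. Of the falls 3 differed with SBP2 and 4 with selenite. The log2 changes of all 12 falls ranged from -4.86 to -1.37 with SBP2 and from -4.77 to -1.64 with selenite. Standard errors in control reached 0.393 for the falls and 0.167 for the rises, so fewer calls among the falls do not show equal sizes. Over all tested IDs 39.9% differed with SBP2 and 33.7% with selenite. Since both groups were picked for their control values, which favours smaller values elsewhere, these counts are a description.

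RNAs of different abundance in the lysate were recovered unequally. IDs were grouped by their mean log2 CPM in the control inputs, with limits of 1, 4, 16, 64, 256 and 1024 CPM. CPM is not divided by transcript length, so each group mixes long, less abundant and short, more abundant RNAs. Among the 100 IDs over 1024 CPM, 88 were lower in control RIP and 4 higher, with 72 at least 2-fold lower, against 39.8% lower and 31.5% higher over all IDs. Their median log2 change was -1.84. In the 3 lysates their median ratio lay below that of all IDs by 1.85, 1.60 and 1.78 on the log2 scale (mean difference -1.74 ± 0.13, SD, n = 3). Among the 581 IDs from 256 to 1024 CPM, 394 were lower and 130 higher, and the median lay at -0.57 ± 0.065 relative to all IDs (SD, n = 3).

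RNAs of middle abundance lay on the other side. Of the 5107 IDs from 16 to 64 CPM, 2235 were higher (43.8%) and 1928 lower (37.8%), with a median relative to all IDs of 0.20 ± 0.015 (SD, n = 3). The 3255 IDs from 4 to 16 CPM lay at 0.12 ± 0.023, with 1234 higher and 1228 lower. The 3022 IDs from 64 to 256 CPM lay at -0.16 ± 0.032, with 1011 higher and 1604 lower. The order was not simply one of abundance, because the 2743 IDs from 1 to 4 CPM lay at -0.25 ± 0.0071, with 530 higher and 1185 lower (all SD, n = 3).

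The rarest group, 2870 IDs under 1 CPM, lay at 0.04 ± 0.0097 relative to all IDs (SD, n = 3), with 427 higher and 612 lower. Its IDs could pass the low-count filter through the RIP libraries alone, which favours those that were higher there, and the median standard error was 0.463 against 0.0978 for IDs over 1024 CPM. Because the input is part of the ratio, levels were also taken from the 6 inputs of the SBP2 treatments, which have no part in the control ratio. The 96 IDs then over 1024 CPM included 84 lower and 4 higher, and the median of their fitted changes lay at -1.88 relative to all IDs, against -1.71 with the control's own inputs. The group from 16 to 64 CPM lay at 0.22 against 0.21 and that from 1 to 4 CPM at -0.24 against -0.28, while the group under 1 CPM changed side, from 0.04 to -0.04.

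**Figure D4:**
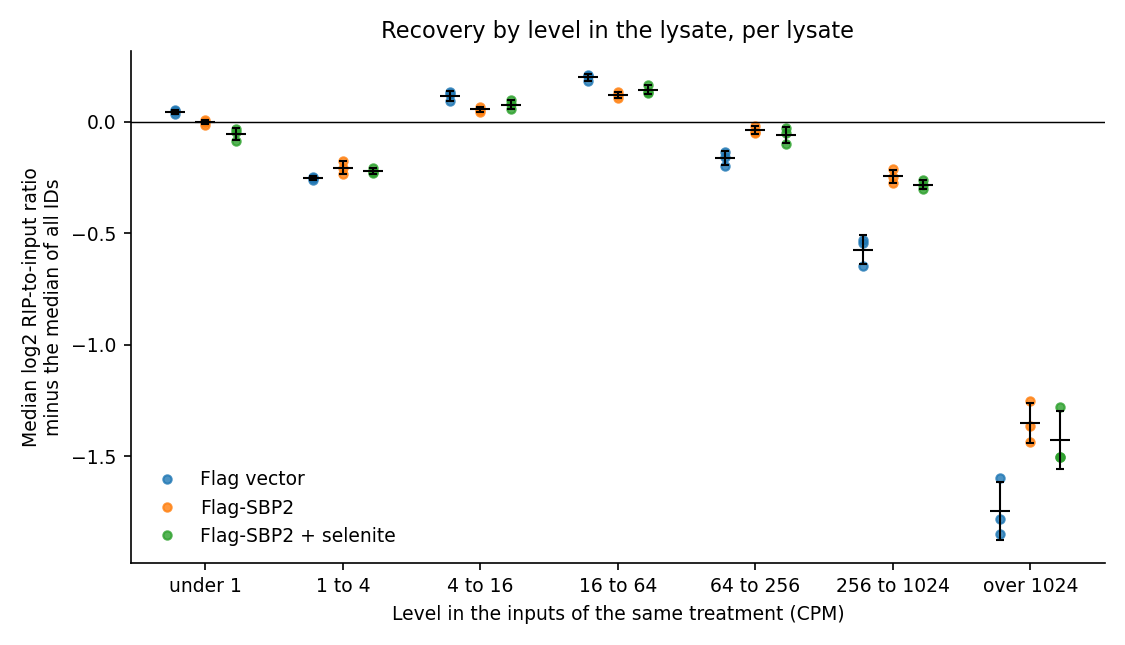
Median log2 RIP-to-input ratio of the IDs in each level group minus the median of all IDs in the same lysate (vertical axis), by level in the inputs of the same treatment in CPM (horizontal axis); points are lysates and bars the mean ± SD of 3. The 3 Flag vector lysates lie at -1.85 to -1.60 over 1024 CPM and at 0.18 to 0.21 from 16 to 64 CPM.

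The pattern was wider on control beads than in the SBP2 precipitations. IDs over 1024 CPM lay at -1.35 ± 0.091 relative to all IDs with SBP2 and at -1.43 ± 0.13 with selenite, against -1.74 ± 0.13 in the control (SD, n = 3). Lysates did not overlap between control and either treatment. The interquartile range of the log2 ratios over all IDs was 1.54, 1.45 and 1.51 in the control lysates, 1.15, 1.09 and 1.14 with SBP2 and 1.09, 1.14 and 1.23 with selenite. The share of IDs at least 2-fold below input was 22.2 ± 0.755% in control, 15.1 ± 0.659% with SBP2 and 15.3 ± 0.949% with selenite (SD, n = 3). The share at least 2-fold above was 13.95 ± 1.24%, 9.75 ± 0.439% and 9.66 ± 1.95%. With library size alone the shares below were 18.1 ± 0.422%, 14.5 ± 0.536% and 14.4 ± 1.05%, those above 18.6 ± 1.58%, 10.5 ± 0.959% and 10.8 ± 1.86%, and control lysates again did not overlap the others. With TMM factors each of these differences from the control had a two-sided exact permutation p of 0.1, the smallest that 3 against 3 lysates allow (adjusted p = 0.1 over 10 comparisons, which include the group from 16 to 64 CPM).

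IDs also differed by their number in the Ensembl series. Ensembl numbers genes broadly in the order in which they entered its annotation, so a high number marks a later entry. Whether earlier and later IDs differ in their kinds of gene was not tested. Of the 12663 tested IDs numbered under 200000, 4729 were higher (37.3%) and 4764 lower (37.6%) in control RIP, with a median log2 change of 0.00. Of the 5015 with higher numbers, 842 were higher (16.8%) and 2275 lower (45.4%), with a median of -0.51. The median of the later IDs was -0.47, -0.45 and -0.46 in the 3 lysates, against 0.01, 0.00 and 0.01 for the earlier ones. Later IDs were rarer, yet the gap was present in each level group. From 16 to 64 CPM the medians were 0.14 for 4600 earlier IDs and -0.61 for 507 later IDs, and from 256 to 1024 CPM -0.63 for 535 and -1.53 for 46. Both groups hold many kinds of RNA, which were not resolved here, and the limit was set after the table had been opened.

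How far the background of the Flag vector recurred with SBP2 was measured on libraries that the comparisons do not share. Of the 2299 IDs at least 2-fold higher in control RIP, 575 were at least 2-fold higher in SBP2 RIP against its own input. They made up 25.01% of the control list, where 8.59% of all IDs were on the SBP2 list. They were 37.9% of the 1519 IDs on the SBP2 list, where 13% of all IDs were on the control list. With selenite 695 were shared, 30.2% of the control list (8.43% of all IDs) and 46.6% of the 1491 IDs of the selenite list (13% of all IDs). With SBP2, 1811 of the 2299 were called higher at any size, where 30.3% of all IDs were, and 3 were at least 2-fold lower, where 14.7% were. Because the list was picked for large rises in the control libraries, smaller values elsewhere are built in. The median log2 change of the list was 1.33 in control, 0.72 with SBP2 and 0.79 with selenite.

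At 2-fold or more, losses recurred as a larger share of both lists than gains did. Without a size limit, 64.3% of the higher and 65.7% of the lower control calls recurred with SBP2 (30.3% and 31.7% of all IDs). These were 66.8% and 82.4% of the SBP2 calls, where 31.5% and 39.8% of all IDs were control calls. With selenite 69.5% of the higher and 68.6% of the lower control calls recurred (30.7% and 31.6% of all IDs). Calls in the opposite direction with SBP2 made up 2.19% of the higher and 11.2% of the lower control calls. Of the 3911 IDs at least 2-fold lower in control RIP, 2161 were at least 2-fold lower in SBP2 RIP. They made up 55.3% of the control list, where 14.7% of all IDs were on the SBP2 list. They were 83.0% of the 2605 IDs of the SBP2 list, where 22.1% of all IDs were on the control list. With selenite 2228 were shared, 57.0% of the control list (14.8% of all IDs) and 85.1% of the 2618 IDs of the selenite list (22.1% of all IDs). In the opposite direction, 90 of the 3911 were at least 2-fold higher in SBP2 RIP and 70 with selenite, where 8.59% and 8.43% of all IDs were. The median of this list, picked in the same way, was -1.64 in control, -1.12 with SBP2 and -1.14 with selenite. In all 3 precipitations, 484 IDs were at least 2-fold higher and 1954 at least 2-fold lower than in their inputs.

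Differences from the control list were tested as the difference of the ratios. Of the 2299 IDs, 1510 (65.7%) had a lower ratio with SBP2 than in control and 40 (1.74%) a higher one by edgeR's test (adjusted p under 0.05), against 18.1% lower and 21.7% higher over all IDs. With selenite these were 1365 and 34 (14.4% and 19.3% over all IDs). The balance over all IDs turned with the scaling: with library size alone 24.7% were lower and 17% higher with SBP2, and 20.3% and 15.1% with selenite. Within the 2299 IDs the counts were then 1702 and 21 with SBP2 and 1585 and 21 with selenite. Of the 3911 lower IDs, 1656 (42.3%) had a higher ratio with SBP2 and 22 a lower one, and with selenite 1521 and 10. With library size alone these were 1359 and 77, and 1249 and 36. The lists were picked on the same control libraries, so a lean toward smaller values elsewhere is built into these counts. Across the 17678 IDs, which are not independent replicates, the control log2 change correlated with that of SBP2 RIP at r = 0.713 and with that of selenite RIP at r = 0.767. Ratios of single control lysates correlated with one another at 0.870 to 0.896, with SBP2 lysates at 0.616 to 0.681 and with selenite lysates at 0.672 to 0.724. An input and a RIP library enter each ratio, and IDs share depth and level, so these values are descriptions.

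**Figure D5:**
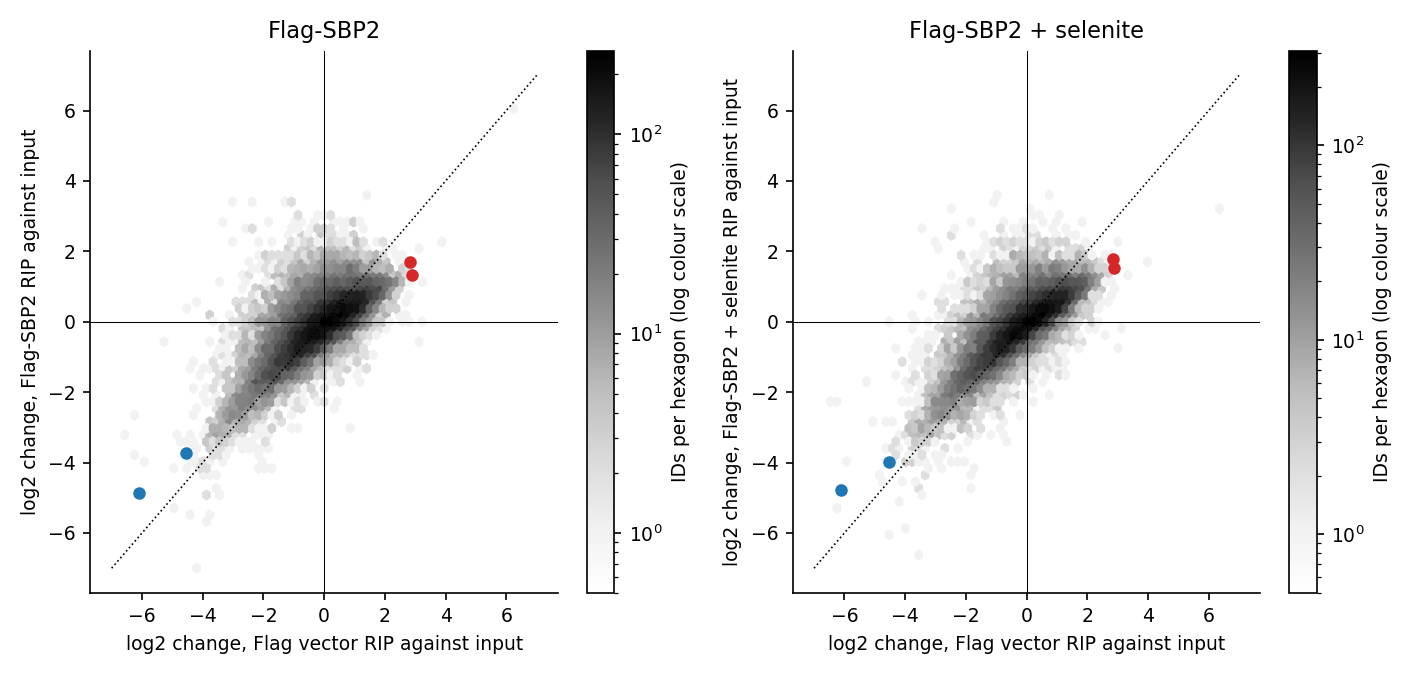
log2 change of each tested ID in Flag-SBP2 RIP (left) and in Flag-SBP2 RIP with selenite (right) against its own input (vertical axes) by its change in Flag vector RIP against input (horizontal axes); shading counts IDs per hexagon on a log scale, the dotted line marks equal changes and the coloured points are the 4 IDs. IDs high in the control lie mostly below the dotted line and above 0, as the medians of 0.72 and 0.79 against 1.33 give for the 2299 IDs at least 2-fold higher.

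Replicates were tighter on the beads than in the lysate. The biological coefficient of variation that edgeR estimated over all IDs was 8.39% for the control RIP libraries and 13.8% for the control inputs, and over the 6 groups it ranged from 6.11% to 13.8%. The main test pooled the spread over these groups. In the 6 control libraries alone, edgeR's adjusted p against input was 1.5e-11 for ENSG00000187240 and 3.93e-11 for ENSG00000078246. It was 9.65e-10 for ENSG00000274012 and 5.15e-10 for ENSG00000219928. Pairs of control RIP libraries correlated across IDs at 0.993 to 0.994 in log2 CPM, and pairs of control inputs at 0.984 to 0.990. For each pair of control replicates the chi-square of the counts divided by its degrees of freedom lay between 9.26 and 27.35, where sampling alone gives about 1, and each library was kept as a separate replicate.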

How the data were processed

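The authors deposited whole-number counts per Ensembl gene ID for 18 libraries. The tools listed are Trim Galore 0.6.6 for trimming, STAR 2.7.6a for alignment to GRCh38 (hg38) and featureCounts 2.0.1, per the submitters' processing notes. Not given in the sources used here are the gene annotation, how strand was set and how multiply aligned reads were treated, so overlapping genes, antisense partners and paralogs may share reads. Samples were grouped by title. The members and lists were chosen with earlier results of these data known.

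IDs were filtered with filterByExpr of edgeR 4.0.16 in R 4.3.3 (minimum count 10, minimum total 15) and scaled by TMM factors. A group-means model over 18 libraries was fitted, with two-sided quasi-likelihood tests by edgeR, adjusted by Benjamini-Hochberg over 17678 IDs (threshold 0.05). Standard errors were derived from the test statistic. Ratios per lysate were differences of log2 CPM with a prior count of 2. The test was checked on simulated data in which few IDs changed. That check does not cover data in which most IDs are called, as here.

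The naming rule took the largest changes in each direction with an adjusted p under 0.05, a log2 change of at least 1, a mean log2 CPM of at least 1 over the control libraries and no overlap of replicates. Of the 12 so ranked per direction, the first 2 are given by ID. Its parts on symbols and gene lists could not be used: 0 of 59792 reference genes carried an Ensembl ID. Gene lists, cell type markers, protein lengths and Flag-like protein letters were therefore not analysed here.

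Same-numbered input and RIP libraries were paired as 1 lysate because the protocol sets the input aside from the material that is precipitated. Their deviations from the group means correlated at 0.105, 0.018 and 0.195. Input and RIP libraries with unlike numbers correlated at -0.189 to 0.076, a range that includes the value of 0.018.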

Additional observations from a re-analysis of the deposited data

Results flagged for a closer look

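The 2 IDs with the largest rise on control beads among those that met the naming rule (mean log2 CPM of at least 1) were marked because their RIP-to-input ratio differed from the control in both SBP2 precipitations by edgeR's test of the difference. For ENSG00000187240 the ratio differed by -1.56 with SBP2 and by -1.36 with SBP2 and selenite, on the log2 scale. For ENSG00000078246 it differed by -1.13 and -1.06. In each case all 3 lysates of the SBP2 treatment lay below all 3 control lysates. Both IDs were picked for their high control values.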

How the results depend on the processing

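The counts of higher and lower IDs kept within 1.5 times under every alternative run, from 5245 to 6600 higher and 5940 to 7074 lower. Which side held more calls was not kept: more IDs were higher with library size alone (6600 and 5952) and without a low-count filter (6580 and 6099). Counts of IDs whose ratio differed from the control turned in balance with scaling, from 3844 higher and 3201 lower to 3007 and 4368 with SBP2 and from 3416 and 2540 to 2670 and 3582 with selenite (library size alone). Left-out control libraries gave 5292 to 5539 higher and 6537 to 6851 lower. With the lysate as a replicate block over 18 libraries, chosen after seeing the data, 5685 were higher and 7074 lower, and 5528 and 6968 of those called without the block remained. In the 6 control libraries alone the replicate block gave 6096 and 6142. The block changed no call of the 4 named IDs against input. Medians of level groups relative to all IDs moved by more than their SD over lysates in some settings. A minimum count of 30 gave 0.84 under 1 CPM, -0.18 from 1 to 4, 0.092 from 4 to 16, 0.17 from 16 to 64 and -0.18 from 64 to 256 CPM. The 6 control libraries alone gave 0.27, -0.31, 0.10 and 0.18 for the first 4 groups, and with the replicate block 0.28, -0.31, 0.10 and 0.18; these settings tested 14771 (minimum count of 30) and 16515 IDs. Under 1 CPM limma voom gave 0.028 and thinning 0.10, and from 1 to 4 CPM thinning gave -0.29. Levels from the other inputs gave -0.035, -0.24 and -1.88 under 1, from 1 to 4 and over 1024 CPM. Left-out libraries gave 0.0094 to 0.067 under 1 CPM, -0.29 to -0.25 from 1 to 4 CPM and 0.20 to 0.23 from 16 to 64 CPM. The cause of these moves was otherwise not tested. Alternatives for gene lists were not run. The rarest IDs were the least precise, with a median standard error of 0.463 under 1 CPM in control. How far depth accounts for this was not tested.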
